A study of Mus musculus with 12 samples.

Results

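The last reactions of triglyceride synthesis in mouse liver were followed through 10 genes, taken by name from the 55471 gene IDs of a count table: Gpam, Gpat4, Agpat2, Agpat3, Lpin1 and Lpin2 of the glycerol-3-phosphate route, Mogat1 and Mogat2 of the monoacylglycerol route, and Dgat1 and Dgat2 of the step that both routes share. Gene expression had been measured by RNA-seq in 12 liver samples of C57BL/6 mice, 3 per group. The MASLD group received a diet that gives metabolic dysfunction-associated steatotic liver disease, a fatty liver with metabolic disease. The 0.1x and 1x groups received the same diet and Aza-TdC, a nucleoside analogue that depletes the DNA methyltransferase DNMT1 after it is built into DNA, at relative doses of 0.1 and 1. The SD group received the standard diet without the drug. The labels give neither the absolute dose, the composition of the diets, the age and sex of the mice nor the length of treatment, and no group received the drug on the standard diet. Nothing in them ties each sample to its own animal, so the p-values rest on the spread between samples, whether technical or biological. Where livers of a group are named or counted below, samples are meant. The series asked how DNMT1 bears on this disease.

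Triglyceride is built by adding fatty acyl groups to a glycerol backbone. In the glycerol-3-phosphate route, GPAT enzymes add the first acyl group, AGPAT enzymes add the next to give phosphatidate, and lipins remove the phosphate to give diacylglycerol. In the monoacylglycerol route, MOGAT enzymes make diacylglycerol directly from monoacylglycerol, and DGAT enzymes complete the triglyceride in both. The liver is known to use mainly the glycerol-3-phosphate route, while the monoacylglycerol route is best known from the intestine, where Mogat2 carries it. Mogat1 is known as a target of the nuclear receptor PPARG in fatty mouse liver.

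Because the drug acts on DNA methylation, which in mammals sits mostly on C followed by G, the bases before the start sites of the genes that open the routes are shown, with each CG in capitals. Of the 10 genes, 6 had an entry in the RefSeq promoter table (GRCm38.p6), and the 250 bases before the start were read 5′ to 3′ on the strand of the gene. Mogat1 opens the monoacylglycerol route and is shown for chr1:78510810-78511059 on the plus strand. The RefSeq starts of Mogat1, Agpat3 and Lpin2 lay inside the gene spans given below. The last part of the Mogat1 stretch, from chr1:78510991 on, was therefore within its annotated gene. Gpam opens the glycerol-3-phosphate route and is shown for chr19:55127239-55127488 on the minus strand.
Mogat1: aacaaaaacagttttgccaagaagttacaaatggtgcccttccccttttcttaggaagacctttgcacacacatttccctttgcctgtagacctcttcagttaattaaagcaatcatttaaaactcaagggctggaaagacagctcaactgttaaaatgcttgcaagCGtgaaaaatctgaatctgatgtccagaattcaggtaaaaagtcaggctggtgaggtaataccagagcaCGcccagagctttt
Gpam: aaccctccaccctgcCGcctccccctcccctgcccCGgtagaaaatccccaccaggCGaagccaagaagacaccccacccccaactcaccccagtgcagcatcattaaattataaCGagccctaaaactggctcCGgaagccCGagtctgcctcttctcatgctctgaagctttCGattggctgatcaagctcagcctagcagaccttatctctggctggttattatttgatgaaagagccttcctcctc
The Mogat1 stretch held 2 CG and the Gpam stretch 7, against a median of 6 and quartiles of 2 and 16 over 32841 promoters of this length. Lpin1 held 1 CG, Agpat3 14 and Agpat2 16, while 3 start sites of Lpin2 held 3, 26 and 50 and an inner start site of Gpam 21. The letters CCAAT, searched on both strands, stood 74 bases before the start of Gpam in the printed stretch, read as ATTGG, and 33.9% of all promoters held them. The letters AGGTCA, which nuclear receptors are known to bind, stood 74 bases before the start of Lpin1, and 196 bases before the inner start site of Gpam, and 14.0% of all promoters held them. CACGTG, held by 6.02% of promoters, stood 9 bases before 1 start site of Lpin2, and another start site of Lpin2 had CCAAT at 57, 165 and 233 bases before it. The Lpin2 start with CACGTG and 26 CG and the inner start of Gpam are less certain. The bases that follow them were found in no annotated transcript of their gene. None of these, nor TATAAA (12.4% of promoters), stood in the stretches of Mogat1, Agpat2 and Agpat3 on either strand. Methylation was not measured here, and a match of letters is a description of the sequence.

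The libraries held 30213048 to 41852606 counts. Hepatocyte markers, such as Alb and Hnf4a, summed to 81946 to 102630 CPM (counts scaled to library size) in the MASLD livers, 87162 to 132640 at 0.1x, 99592 to 118040 at 1x and 164990 to 175560 in the SD livers, and 8 of 8 fell in the MASLD livers against the SD livers. Of the markers of other cells, 7 of 8 macrophage, 6 of 8 stellate cell, 4 of 6 endothelial and 4 of 6 tested cholangiocyte genes rose in that comparison, and 0 of 4 tested T and NK cell genes and 0 of 3 B cell genes did. The 2 tested enterocyte genes, Apoa4 and Fabp2, which liver also expresses, rose, and 1 of 2 tested fat cell genes, Car3, fell. Macrophage markers summed to 190 to 273 CPM in the MASLD livers, 215 to 248 at 0.1x, 96.0 to 187 at 1x and 85.7 to 131 in the SD livers. Stellate cell markers summed to 191 to 301 CPM in the MASLD livers, 144 to 231 at 0.1x, 131 to 174 at 1x and 101 to 124 in the SD livers. Endothelial markers summed to 127 to 144 CPM in the MASLD livers, 122 to 131 at 0.1x, 123 to 153 at 1x and 78.9 to 101 in the SD livers. Cholangiocyte markers summed to 43.7 to 155 CPM in the MASLD livers, 29.7 to 48.0 at 0.1x, 25.9 to 30.1 at 1x and 16.2 to 26.6 in the SD livers. In whole tissue, fewer cells of a type and less RNA per cell cannot be told apart, and the part of these shifts in the values below was not tested. The intestinal markers Cdx2 and Alpi and the fat cell marker Lep were at 0 counts in all 12 libraries. A trend of the counts with GC content and gene length was strongest in 0.1x sample 3 (19.1% of the variance between genes) and 1x sample 2 (16.5%), and calls of the 10 genes and of the lists around them that were lost without either of these libraries are given beside the results. Dnmt1, whose protein the drug depletes, averaged 9.12 ± 0.55 CPM in the MASLD livers, 6.06 ± 0.70 CPM at 0.1x, 8.22 ± 1.83 CPM at 1x and 6.43 ± 0.77 CPM in the SD livers (± standard deviation over samples, n = 3 each). Its transcript rose by 0.50 ± 0.17 on the log2 scale in MASLD against SD livers (adjusted p = 0.0335). It fell by 0.59 ± 0.17 in 0.1x against MASLD livers (adjusted p = 0.0336), and in 1x against MASLD livers it did not pass the test (adjusted p = 0.730). With a sample left out, a check of Dnmt1 and of the lists below that was chosen after the data were seen, each of the 2 changes passed in 1 of 6 fits, without SD sample 4 in MASLD against SD livers and without 0.1x sample 4 in 0.1x against MASLD livers; without 0.1x sample 3 the second stood at −0.50 (adjusted p = 0.0902).

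Dgat2 of the last step and the genes of the glycerol-3-phosphate route were the more abundant transcripts in each group, while Dgat1 and the genes of the monoacylglycerol route were low. Per kilobase of exon, which allows levels of different genes to be compared, Dgat2 was the most abundant of the 10 genes in each group, with 167 ± 6.37 CPM per kilobase in MASLD livers, 170 ± 12.5 at 0.1x, 200.2 ± 6.43 at 1x and 254 ± 20.5 in SD livers (± standard deviation, n = 3 each). Agpat2, an acyltransferase that makes phosphatidate, came next on this scale with group means of 88.8 to 114. Agpat3, which acts on the same substrate and remodels phospholipids, had group means of 29.5 to 42.1 CPM per kilobase. Gpam, the mitochondrial GPAT, had means of 23.9 to 43.3, and Gpat4, a GPAT of the endoplasmic reticulum, 27.9 to 42.3. The lipins covered a like range, from 16.7 to 45.6 for Lpin1 and from 23.4 to 35.7 for Lpin2. Dgat1, the DGAT that is not related in sequence to Dgat2, had group means of 6.56 to 7.04 CPM per kilobase. Mogat1 had 6.15 ± 0.89 CPM per kilobase in MASLD livers, 5.08 ± 0.58 at 0.1x, 3.05 ± 0.78 at 1x and 0.71 ± 0.16 in SD livers, so that in the MASLD livers it came close to Dgat1 (6.56 ± 0.34). With the longest transcript as the length, these were 7.80 for Mogat1 and 10.6 for Dgat1. Mogat2, the main intestinal MOGAT, was near the detection limit in all groups: the MASLD livers held 5, 11 and 3 counts, the 0.1x livers 5, 15 and 1, the 1x livers 4, 0 and 4, and the SD livers 3, 5 and 3. The count of 0 in 1x sample 4 allows up to 0.0720 CPM, a limit of 3 counts that covers counting error only.

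**Figure D1:**
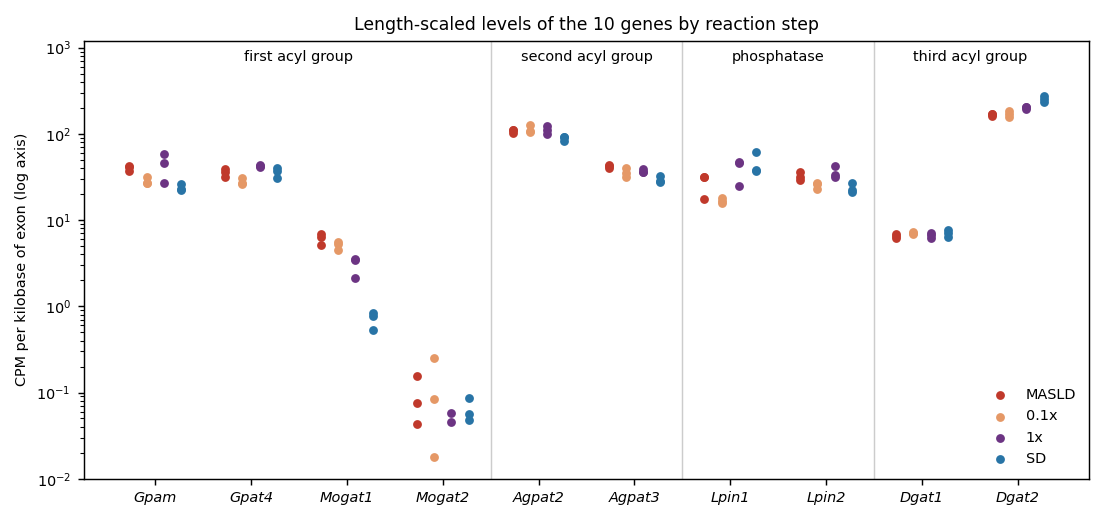
Levels of the 10 genes in CPM per kilobase of exon (log axis), ordered by the reaction they serve. The label of the first acyl group covers the opening enzymes of both routes, though MOGAT enzymes act on monoacylglycerol, which already holds 1. Each point is 1 library, coloured by group, with the 0 of Mogat2 in 1x sample 4 not drawn. Dgat2 stands highest in every group, Mogat1 is close to Dgat1 in MASLD livers and below it in SD livers, and Mogat2 lies lowest.

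Positions and overlapping genes were read from the annotation (mm10). Dgat2 (chr7:99153658-99182719) and Mogat2 (chr7:99219084-99238619), related in sequence, lay near each other on the minus strand of chromosome 7. Mogat1 (chr1:78510991-78538173, plus strand) is overlapped on the other strand by BC035947, which held 116 counts over the 12 libraries against 2528 for Mogat1. Agpat2 (chr2:26593057-26604417, minus strand) is overlapped by Egfl7 on the other strand, with 3079 counts against 96574. The strand setting of the counting is not given in the sources used here, so reads of overlapping genes cannot be told apart. Gpam lies at chr19:55067268-55127238, Gpat4 at chr8:23171265-23208346, Agpat3 at chr10:78269178-78352489, Lpin1 at chr12:16535669-16610966 and Dgat1 at chr15:76502015-76511953, all on the minus strand, and Lpin2 at chr17:71182560-71249817 on the plus strand.

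On the MASLD diet, Mogat1 of the monoacylglycerol route and Gpam of the GPAT step rose, and at the last step Dgat2 fell. Mogat1 was 8.60-fold higher in MASLD than in SD livers, Gpam 1.69-fold, Agpat3 1.42-fold and Lpin2 1.38-fold higher. Dgat2 stood at 0.655 and Lpin1 at 0.589 of their SD level. Of the 9 genes tested, 4 rose and 2 fell, against 29.5% of all 13866 tested genes that changed in either direction (15.6% higher and 13.9% lower). The samples of both groups did not overlap for 7 of the 9, against 47.9% of all tested genes. The median log2 fold change was 0.29 over the 9 genes and 0.03 over all tested genes. Mogat2 did not pass the filter on low counts, and Mogat1 was above that filter's level in the SD livers too.

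For the opening step, Mogat1 had 10.8, 8.08 and 9.86 CPM in MASLD livers (389, 315 and 372 counts), against 1.19, 0.823 and 1.31 CPM in SD livers (35, 26 and 45 counts). The lowest MASLD liver stood far above the highest SD liver, and the log2 fold change was 3.11 ± 0.24 (SE, adjusted p = 5.9e-07, edgeR's quasi-likelihood test with Benjamini-Hochberg adjustment, as for every adjusted p here). Gpam had 249, 284 and 274 CPM in MASLD livers, against 174, 154.5 and 148 CPM in SD livers. The groups lay apart, and the log2 fold change was 0.76 ± 0.20 (adjusted p = 0.0110). Gpat4 overlapped between the groups, with 242, 209 and 260 CPM in MASLD livers against 207, 271 and 248 CPM in SD livers, and a log2 fold change of −0.03 ± 0.12 (adjusted p = 0.886). The 2 GPAT genes therefore stood in a different ratio, with Gpam over Gpat4 at 1.03 to 1.36 per length in MASLD livers and 0.571 to 0.844 in SD livers.

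For the following steps, Agpat3 had 339, 315 and 329 CPM in MASLD livers, against 217, 250 and 224 CPM in SD livers. The groups lay apart, with a log2 fold change of 0.51 ± 0.11 (adjusted p = 0.00350). Agpat2, whose loss causes lipodystrophy in mice and people, had 238, 216 and 239 CPM in MASLD livers, against 195, 178 and 195 CPM in SD livers, which lay apart as well, but its log2 fold change of 0.29 ± 0.12 did not pass (adjusted p = 0.0722). The lipins went opposite ways. Lpin1, a phosphatase that also acts with the coactivator PGC1A on genes of fatty acid oxidation, had 301, 170 and 307 CPM in MASLD livers, against 596, 358 and 367 CPM in SD livers. All MASLD livers were below all SD livers, with a log2 fold change of −0.76 ± 0.26 (adjusted p = 0.0399). Lpin2, the second lipin of liver, had 386, 352 and 446 CPM in MASLD livers, against 259, 326 and 274 CPM in SD livers, and rose by 0.46 ± 0.14 (adjusted p = 0.0249). Per length, Lpin1 over Lpin2 stood at 0.611 to 0.988 in MASLD livers and 1.39 to 2.92 in SD livers. The calls of both lipins rested on few samples: the log2 fold change of Lpin1 was −0.49 without SD sample 3 (adjusted p = 0.176), −0.89 without MASLD sample 3 (0.0531) and −0.54 without MASLD sample 4 (0.169). That of Lpin2 was 0.39 without SD sample 3 (adjusted p = 0.0809), 0.43 without SD sample 5 (0.0853), 0.48 without MASLD sample 3 (0.0581), 0.36 without MASLD sample 5 (0.110) and 0.27 with the trend on GC content and length removed (0.126).

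At the last step, Dgat2, the DGAT that esterifies newly made fatty acids in liver, had 525, 491 and 526 CPM in MASLD livers, against 726, 851 and 776 CPM in SD livers. The groups lay far apart, with a log2 fold change of −0.61 ± 0.11 (adjusted p = 0.000814). Dgat1, known for re-esterifying taken-up fatty acids, had 21.2, 19.2 and 19.8 CPM in MASLD livers against 19.4, 23.4 and 21.7 CPM in SD livers, with a log2 fold change of −0.10 ± 0.11 (adjusted p = 0.507). Per length, Dgat2 exceeded Dgat1 by 24.5 to 26.3 times in MASLD livers and by 35.4 to 37.0 times in SD livers. Scaling bears on this step: with libraries set to their total counts alone, the median of all genes shifted by 0.36 on the log2 scale, and Dgat2 stood at −0.25 (adjusted p = 0.0548) and Lpin1 at −0.41 (0.205), which is −0.61 and −0.77 relative to that shift. Under that scaling 5 of the 9 genes rose and 0 fell, and 44.0% of all tested genes changed.

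**Figure D2:**
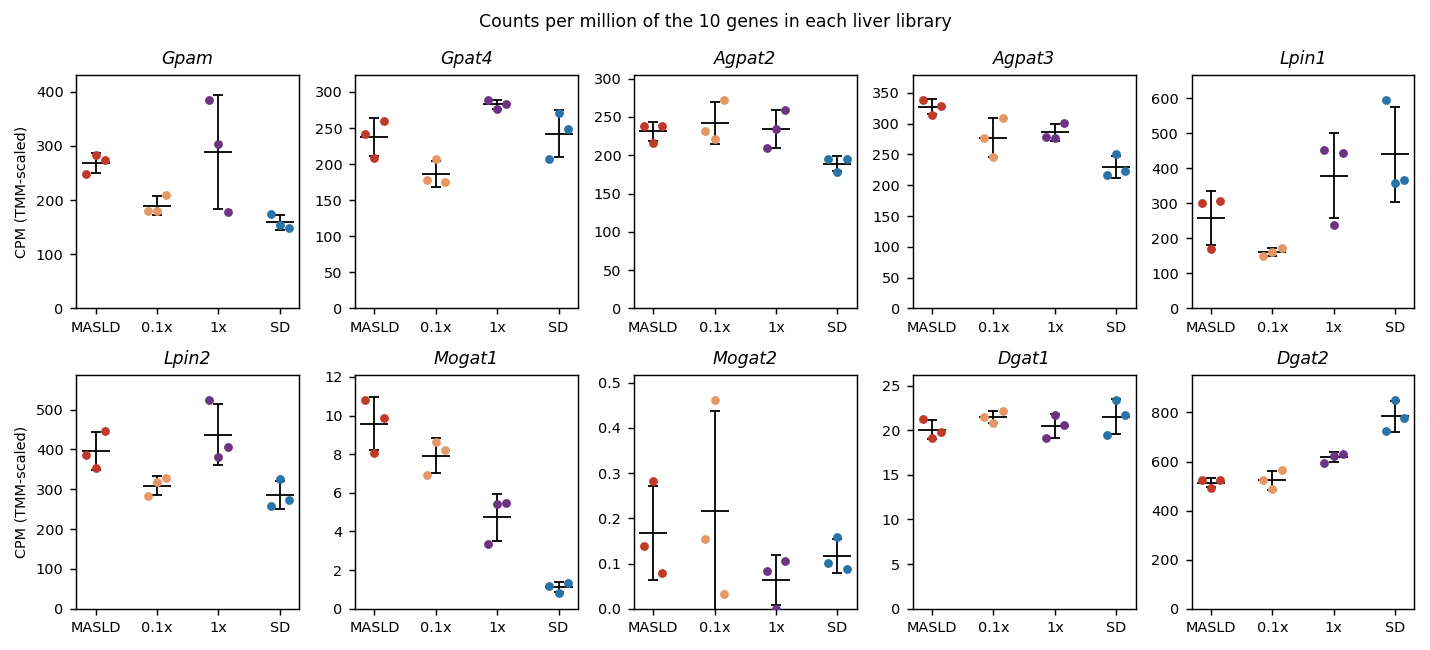
CPM of the 10 genes (vertical axes from 0, each with its own scale) in the MASLD, 0.1x, 1x and SD livers; each point is 1 library, and the bars give the mean and standard deviation of 3. Mogat1 lies above all SD livers in every MASLD-diet group, Dgat2 lies below them, and Gpam spreads from 177 to 385 CPM among the 1x livers.

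Within each library the 2 routes can be set against each other at their opening acyltransferases. This was done as Mogat1 and Mogat2 over Gpam and Gpat4 per length. The reactions differ, because GPAT enzymes add the first acyl group, while MOGAT enzymes act on monoacylglycerol, which already holds 1. The monoacylglycerol genes stood at 7.23% to 9.54% of the GPAT genes in MASLD livers, 8.45% to 9.99% at 0.1x, 2.17% to 5.18% at 1x and 0.964% to 1.49% in SD livers. On the log2 scale the ratio averaged −3.61 ± 0.20 in MASLD livers, −3.44 ± 0.12 at 0.1x, −4.81 ± 0.65 at 1x and −6.29 ± 0.35 in SD livers (± standard deviation, n = 3 each), so the GPAT genes led in every library. The MASLD livers exceeded the SD livers by 2.68 on this scale, the 0.1x livers exceeded the MASLD livers by 0.17, and the 1x livers lay below the MASLD livers, at a difference of −1.20 (−0.85 without 1x sample 2 and −1.47 without 1x sample 5). The ranges of MASLD and 0.1x livers overlapped, and the 1x livers lay between them and the SD livers without overlap. Counted over all 10 genes per length, the monoacylglycerol route held 1.34% ± 0.12 of the total in MASLD livers, 1.21% ± 0.18 at 0.1x, 0.597% ± 0.157 at 1x and 0.153% ± 0.032 in SD livers. The glycerol-3-phosphate route held 61.4% ± 0.87 in MASLD livers, 57.6% ± 0.84 at 0.1x, 59.4% ± 2.2 at 1x and 48.6% ± 2.8 in SD livers, and the shared last step held the rest. These are ratios of transcripts and not of flux, and no p is given for them because the genes were chosen with results known.

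**Figure D3:**
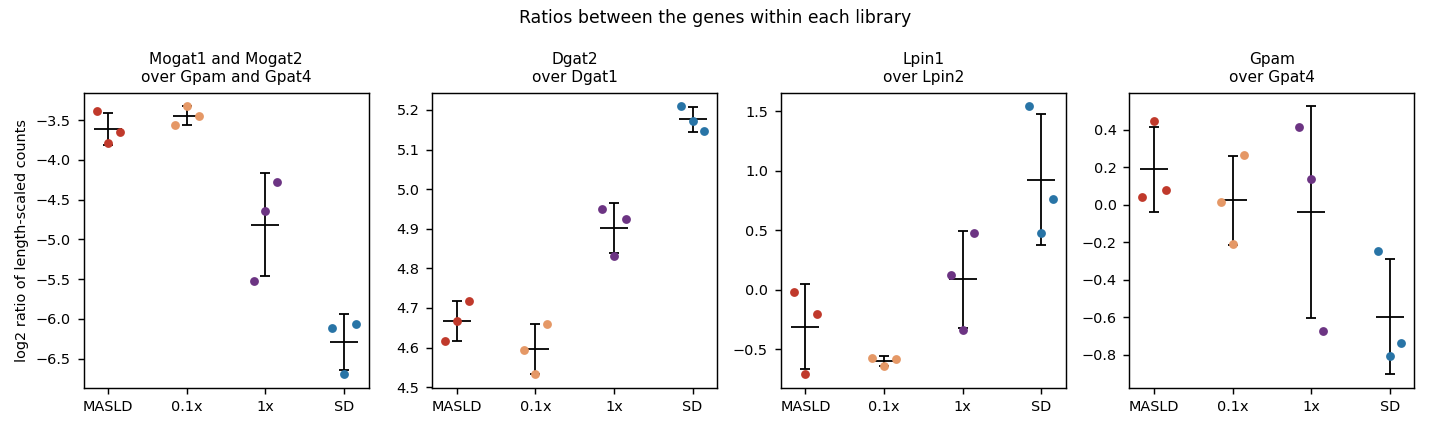
Ratios of length-scaled counts within each library (log2; points are libraries, bars mean and standard deviation of 3) for the 2 routes, the 2 DGAT genes, the 2 lipins and the 2 GPAT genes. The route ratio averages −3.61 in MASLD, −3.44 in 0.1x, −4.81 in 1x and −6.29 in SD livers, and Dgat2 over Dgat1 is highest in SD livers.

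At the 0.1x dose, 0 of the 9 genes passed edgeR's test against MASLD livers, while 13.2% of all tested genes did (6.08% higher and 7.09% lower). DESeq2 called 1, Lpin1, and 17.7% of all genes it tested. In edgeR's fit Lpin1 stood at a log2 fold change of −0.68 ± 0.26 (adjusted p = 0.0926), Gpam at −0.51 ± 0.20 (0.101) and Lpin2 at −0.35 ± 0.14 (0.110). Gpat4 stood at −0.35 ± 0.13 (0.0779) and Agpat3 at −0.24 ± 0.11 (0.156). These values depended on the processing. Over 9 other settings Lpin1 ranged from −0.81 to −0.18, Gpam from −0.64 to −0.32 and Gpat4 from −0.47 to −0.049. Lpin2 ranged from −0.48 to 0.12 and Agpat3 from −0.38 to 0.062, turning sign only where the trend on GC content and length was removed. Gpam had 179, 179 and 210 CPM at 0.1x, against 249, 284 and 274 CPM in MASLD livers. Gpat4 had 178, 208 and 175 CPM at 0.1x, against 242, 209 and 260 CPM in MASLD livers. Both lay apart, Gpat4 by little more than 1 CPM, as did Lpin2 (283, 317 and 328 CPM at 0.1x) and Agpat3 (276, 246 and 310 CPM at 0.1x), which makes 4 of 9 against 35.5% of all tested genes. Lpin1 had 150, 161 and 173 CPM at 0.1x, against 301, 170 and 307 CPM in MASLD livers, and overlapped through MASLD sample 4. Mogat1 overlapped with its MASLD level, with 6.91, 8.63 and 8.22 CPM at 0.1x against 10.8, 8.08 and 9.86 CPM, and a log2 fold change of −0.27 ± 0.20 (adjusted p = 0.374). Agpat2 (232, 221 and 273 CPM at 0.1x), Dgat1 (21.5, 20.8 and 22.1 CPM) and Dgat2 (524, 486 and 564 CPM) overlapped with the MASLD livers, at log2 fold changes of 0.07 ± 0.12, 0.10 ± 0.11 and 0.03 ± 0.11. A p that misses the threshold does not show that the levels were equal. The median log2 fold change was −0.27 over the 9 genes and −0.02 over all tested genes.

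At the 1x dose, Mogat1 fell to 0.494 of its MASLD level and was 1 of 9 genes that passed, against 3.11% of all tested genes (1.62% lower). It had 3.34, 5.42 and 5.47 CPM at 1x (159, 226 and 207 counts), against 10.8, 8.08 and 9.86 CPM in MASLD livers. The groups lay apart, with 1x sample 2 lowest, and the log2 fold change was −1.02 ± 0.20 (adjusted p = 0.0169). Without 1x sample 2 it was −0.81 (adjusted p = 0.0659) and without MASLD sample 3 it was −0.92 (0.0877), fits in which 148 of 14195 and 102 of 14213 tested genes passed. At this dose Mogat1 was still 4.25-fold above the SD livers. In the same comparison 1 of 8 macrophage markers fell and 2 of 8 hepatocyte markers rose, and their part in the result was not tested. No overlap with MASLD livers was also seen for Gpat4 (289, 276 and 283 CPM at 1x), Agpat3 (278, 277 and 302 CPM) and Dgat2 (595, 624 and 632 CPM), so 4 of 9 against 27.8% of all tested genes. Their log2 fold changes did not pass, at 0.25 ± 0.12 for Gpat4 (adjusted p = 0.317), −0.20 ± 0.11 for Agpat3 (0.394) and 0.26 ± 0.11 for Dgat2 (0.222). Gpam spread widely at 1x, with 385, 303 and 177 CPM, which enclosed the MASLD livers (log2 fold change 0.10 ± 0.20, adjusted p = 0.869, and −0.16 without 1x sample 2). Lpin1 had 452, 238 and 445 CPM at 1x (log2 fold change 0.55 ± 0.26, adjusted p = 0.305) and Lpin2 524, 381 and 405 CPM (0.15 ± 0.14, 0.692). Agpat2 with 210, 234 and 259 CPM and Dgat1 with 19.1, 21.8 and 20.6 CPM at 1x lay across the MASLD values. The median log2 fold change was 0.10 over the 9 genes and −0.00 over all tested genes.

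Set directly against each other, the doses differed at the GPAT, MOGAT and lipin steps. Lpin1 was 2.35-fold, Gpat4 1.52-fold and Lpin2 1.41-fold higher at 1x than at 0.1x, and Mogat1 stood at 0.598 of its 0.1x level. These were 4 of 9 genes, against 13.0% of all tested genes (7.13% higher and 5.86% lower), and 5 of 9 did not overlap, against 30.8%. Lpin1 had 452, 238 and 445 CPM at 1x, against 150, 161 and 173 CPM at 0.1x. Every 1x liver was above every 0.1x liver, with a log2 fold change of 1.23 ± 0.27 (adjusted p = 0.0126). Gpat4 was even at 1x, with 289, 276 and 283 CPM, against 178, 208 and 175 CPM at 0.1x. Its log2 fold change was 0.60 ± 0.13 (adjusted p = 0.0114). Lpin2 had a log2 fold change of 0.50 ± 0.14 (adjusted p = 0.0353) and Mogat1 one of −0.74 ± 0.21 (0.0306). Gpam had a log2 fold change of 0.61 ± 0.20 and did not pass (adjusted p = 0.0577), and 1x sample 5 (177 CPM) lay below all 0.1x livers; without that sample the log2 fold change was 0.86 (adjusted p = 0.0119), and without 1x sample 2, the highest library at 385 CPM, it was 0.34 (0.319). Dgat2 did not overlap between the doses but did not pass, at 0.23 ± 0.11 (adjusted p = 0.160), and Agpat2, Agpat3 and Dgat1 lay within −0.07 to 0.04.

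The comparison of the doses depended on single libraries. Without 1x sample 2, 210 of 14195 tested genes passed (1.48%, against 13.0% with it), and none of the 4 genes did: Lpin1 stood at 1.08 (adjusted p = 0.0730), Gpat4 at 0.58 (0.0583), Lpin2 at 0.34 (0.196) and Mogat1 at −0.55 (0.143). Mogat1 was also not called without 0.1x sample 3 (−0.67, 0.0725) or sample 4 (−0.71, 0.0639), and Lpin2 not without 0.1x sample 1 (0.44, 0.101), 3 (0.52, 0.0546) or 4 (0.54, 0.0528) or 1x sample 5 (0.55, 0.0612). With both libraries of the strongest GC trend left out, a setting chosen after the data were seen, 1 of 9 passed, Gpat4 at 0.66 (adjusted p = 0.0402), as did 260 of 14090 tested genes. With the trend on GC content and length removed from each library, 1 of 9 passed, Lpin1, as did 872 of 13866 tested genes (6.29%). In that fit Gpat4 stood at 0.40 (0.0780), Lpin2 at 0.17 (0.442) and Mogat1 at −0.47 (0.130).

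**Figure D4:**
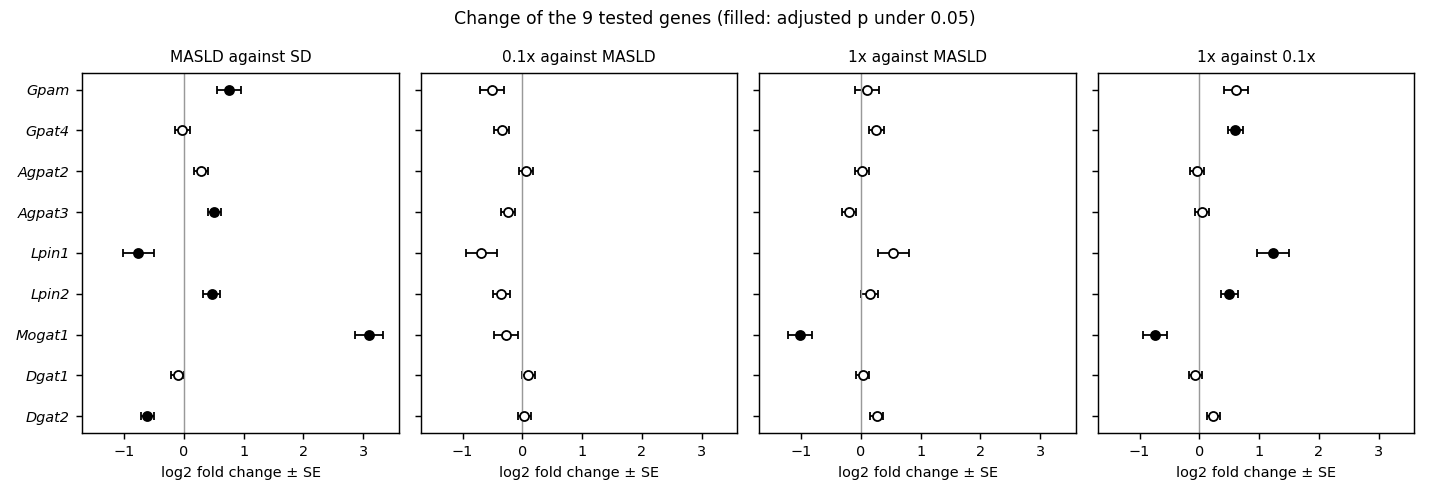
Log2 fold changes with SE of the 9 tested genes in MASLD against SD, 0.1x against MASLD, 1x against MASLD and 1x against 0.1x livers; filled points passed at an adjusted p under 0.05. In MASLD against SD 6 points are filled, Mogat1 farthest to the right at 3.11; at 0.1x against MASLD none is filled, at 1x against MASLD Mogat1 alone, and between the doses 4.

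Against the SD livers, which received neither the diet nor the drug, both doses kept part of the diet pattern; these comparisons share their SD livers with the one of the diets. At 0.1x, 2 of 9 genes rose and 3 fell (20.7% of all tested genes changed, 9.85% higher and 10.9% lower), and 5 of 9 did not overlap with the SD livers, against 31.9% of all tested genes. Mogat1 was 7.11-fold higher (log2 fold change 2.83 ± 0.24, adjusted p = 2.3e-06), and Dgat2 (−0.58 ± 0.11, 0.00194) and Lpin1 (−1.45 ± 0.27, 0.00170) were lower. Agpat2 rose by 0.36 ± 0.12 (adjusted p = 0.0415) and Gpat4 fell by 0.37 ± 0.13 (0.0461) at 0.1x. Both were near the threshold: Agpat2 was called in 1 of 6 fits with a sample left out, 0.1x sample 3, and had adjusted p of 0.0658, 0.152 and 0.0757 without SD sample 3, 4 and 5 and 0.0623 and 0.160 without 0.1x sample 1 and 4. Gpat4 had adjusted p of 0.193 and 0.106 without SD sample 4 and 5 and 0.123 and 0.128 without 0.1x sample 1 and 4. Agpat3, at 0.27 ± 0.11 (adjusted p = 0.103), stood at 0.35 without 0.1x sample 3 (0.0376). With total counts alone 3 of the 9 genes were higher than in SD livers and 2 lower at 0.1x.

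At 1x against SD livers, 3 of 9 genes rose and 1 fell (19.8% of all tested genes changed, 9.91% higher and 9.84% lower), and 7 of 9 did not overlap, against 37.2% of all tested genes. Mogat1 (log2 fold change 2.09 ± 0.24, adjusted p = 3.8e-05), Gpam (0.86 ± 0.20, 0.00776) and Lpin2 (0.61 ± 0.14, 0.00813) were higher, and Dgat2 was lower (−0.35 ± 0.11, 0.0366). Lpin1 was not called, at −0.22 ± 0.26 (adjusted p = 0.602), with 452, 238 and 445 CPM at 1x against 596, 358 and 367 CPM in SD livers. Without 1x sample 2, Gpam stood at 0.59 (adjusted p = 0.0502), Lpin2 at 0.45 (0.0510) and Dgat2 at −0.33 (0.101), and Mogat1 alone of the 4 was called, as were 1699 of 14195 tested genes. Dgat2 was also not called without SD sample 4 (−0.28, 0.137) or 5 (−0.35, 0.0895) or without 1x sample 4 (−0.35, 0.0730) or 5 (−0.36, 0.0824). With total counts alone 6 of the 9 genes were higher than in SD livers and 0 lower at 1x, with 33.4% of all tested genes changed.

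In descending order of the group means, Mogat1 ran from MASLD over 0.1x and 1x to SD livers, and 0.1x and MASLD were neighbours that did not differ beyond their spread, while the steps between 1x and 0.1x and between 1x and SD livers passed the test. Dgat2 ran from SD over 1x and 0.1x to MASLD livers, and between neighbours the step of 1x and SD livers passed. Among neighbouring groups of Gpam, Gpat4, Agpat2, Agpat3, Lpin1, Lpin2 and Dgat1 no step passed. Gpam and Lpin2 were highest at 1x and lowest in SD livers, Gpat4 was highest at 1x and lowest at 0.1x, Lpin1 was highest in SD livers and lowest at 0.1x, and Agpat3 was highest in MASLD livers.

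Around the 10 genes, other enzymes of the same reactions and their substrates were followed as lists. Of 9 tested other isoforms (Gpat2, Agpat1, Lpin3 and the like), 1 rose on the MASLD diet (15.6% of all tested genes did): Gpat3, a further GPAT of the endoplasmic reticulum, averaged 17.3 ± 0.96 CPM in MASLD livers, 16.5 ± 0.90 CPM at 0.1x, 17.4 ± 4.9 CPM at 1x and 3.58 ± 0.86 CPM in SD livers. Its log2 fold change was 2.27 ± 0.21 in MASLD against SD livers (adjusted p = 2.8e-06), and no other isoform passed in any of the 6 comparisons. A gene on the other strand, 4930458D05Rik, overlaps Gpat3. The isoform with the smallest p was Lclat1 at 0.1x against MASLD livers (−0.28 ± 0.13, adjusted p = 0.145), Tmem68 at 1x against MASLD livers (0.33 ± 0.17, 0.348) and Gpat2 between the doses (−0.80 ± 0.37, 0.159). Of 10 tested genes that supply substrate, 5 rose in MASLD against SD livers and 0 fell, against 15.6% of all tested genes higher and 13.9% lower. Mgll, which releases monoacylglycerol's fatty acid and so uses the substrate of Mogat1, averaged 408 ± 29 CPM in MASLD and 144 ± 10 CPM in SD livers (log2 fold change 1.50 ± 0.11, adjusted p = 3.2e-07). Gk, which makes glycerol-3-phosphate from glycerol, averaged 119 ± 7.6 CPM in MASLD and 56.3 ± 7.0 CPM in SD livers (1.08 ± 0.13, 3.1e-05). At 0.1x against MASLD livers 1 of the 10 fell, Acsl4, an acyl-CoA synthetase (−0.61 ± 0.15, adjusted p = 0.0196, with 7.09% of all tested genes lower), and with a sample left out it passed without 0.1x sample 1 or 3 alone. Between the doses Acsl4 was higher at 1x (0.66 ± 0.15, adjusted p = 0.0142, with 7.13% of all tested genes higher) and stood at 0.55 without 1x sample 2 (0.0864). At 1x against MASLD livers 1 of the 10 fell, Gpd1, which makes glycerol-3-phosphate from dihydroxyacetone phosphate: it averaged 514 ± 30 CPM at 1x and 799.9 ± 57.9 CPM in MASLD livers (−0.64 ± 0.11, adjusted p = 0.00768, with 1.62% of all tested genes lower). Gpd1 stood at −0.59 without 1x sample 2 (adjusted p = 0.0375) and at −0.58 without MASLD sample 3 (0.0600).

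Phosphatidate and diacylglycerol also feed phospholipid synthesis, and of 17 tested genes of that use 4 rose and 2 fell in MASLD against SD livers, near the 29.5% of all tested genes that changed. Pemt, which methylates phosphatidylethanolamine to phosphatidylcholine, averaged 251 ± 12 CPM in MASLD and 509 ± 55 CPM in SD livers (log2 fold change −1.02 ± 0.12, adjusted p = 3.3e-05), and the ethanolamine kinase Etnk2 fell too (−0.90 ± 0.14, 0.000217). Pgs1, of cardiolipin synthesis (0.66 ± 0.18, 0.0122), and Etnk1 (0.45 ± 0.13, 0.0198) rose; Pgs1 was not called without MASLD sample 3 (0.60, adjusted p = 0.0502), nor Etnk1 without MASLD sample 5 (0.40, 0.0716) or SD sample 5 (0.35, 0.0978). At 0.1x against MASLD livers, Pemt (0.42 ± 0.12, adjusted p = 0.0365) and Crls1, the cardiolipin synthase (0.50 ± 0.16, 0.0475), rose and Etnk1 fell (−0.52 ± 0.13, 0.0228), 3 of 17 against 13.2% of all tested genes. With a sample left out, each of these 3 passed in 1 of 6 fits: Pemt without 0.1x sample 1, Crls1 without 0.1x sample 4 and Etnk1 without 0.1x sample 3. At 1x against MASLD livers 1 gene of the list fell, the choline kinase Chka (−0.78 ± 0.17, adjusted p = 0.0244, with 3.11% of all tested genes changed), and with a sample left out it passed without 1x sample 5 or MASLD sample 5 alone (−0.71 without 1x sample 2, 0.0953). Between the doses Pcyt1a, which activates phosphocholine (0.46 ± 0.10, 0.0136), and Etnk1 (0.48 ± 0.13, 0.0294) were higher at 1x, 2 of 17 against 13.0% of all tested genes changed. Without 1x sample 2, Pcyt1a stood at 0.44 (adjusted p = 0.0663) and Etnk1 at 0.35 (0.166), and Etnk1 was also not called without 0.1x sample 1 (0.43, 0.0847) or 4 (0.46, 0.0701).

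Of 10 tested partners of the lipins and transcription factors of lipid genes, 3 rose and 2 fell in MASLD against SD livers, against 29.5% of all tested genes that changed. Pparg, the nuclear receptor named above for Mogat1, averaged 27.1 ± 3.2 CPM in MASLD livers, 21.9 ± 3.8 CPM at 0.1x, 17.3 ± 3.6 CPM at 1x and 11.1 ± 0.51 CPM in SD livers. It rose by 1.29 ± 0.16 in MASLD against SD livers (adjusted p = 5.0e-05) and fell by 0.65 ± 0.16 at 1x against MASLD livers (0.0400), the comparison in which Mogat1 fell. A link between the changes of Pparg and Mogat1 was not tested. With a sample left out the fall of Pparg passed without 1x sample 5 or MASLD sample 5 alone, and it was −0.49 without 1x sample 2 (adjusted p = 0.141). Ppara, the receptor that drives fatty acid oxidation, rose by 0.82 ± 0.21 in MASLD against SD livers (adjusted p = 0.00857), fell by 1.03 ± 0.21 at 0.1x against MASLD livers (0.0116) and was higher at 1x than at 0.1x (1.06 ± 0.21, 0.00879; 0.89 without 1x sample 2, 0.0578). Mlxipl, the carbohydrate-responsive factor ChREBP, fell by 0.47 ± 0.15 in MASLD against SD livers (adjusted p = 0.0274), and Ppargc1b, a coactivator, by 0.64 ± 0.23 (0.0450). Mlxipl was not called without MASLD sample 3 or 4 or SD sample 3 (adjusted p = 0.106, 0.113 and 0.0802), nor Ppargc1b without MASLD sample 4 or 5 or SD sample 3 (0.147, 0.129 and 0.240, where its log2 fold change was −0.34).

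Against SD livers, the same lists gave at 0.1x 1 of 9 isoforms, 4 of 10 substrate genes, 1 of 17 phospholipid genes and 2 of 10 partners higher, and 0, 0, 2 and 2 lower, while 9.85% of all tested genes were higher and 10.9% lower. At 1x they gave 1, 5, 2 and 3 higher and 0, 0, 3 and 1 lower, while 9.91% of all tested genes were higher and 9.84% lower. Without 0.1x sample 3, 1 of these 12 calls at 0.1x was lost (Gpd1, 0.33, adjusted p = 0.0601), and without 1x sample 2, 3 of the 15 at 1x were (Chka at −0.59, 0.0644; Etnk1 at 0.28, 0.206; Ppara at 0.68, 0.0594). Their medians of log2 fold changes in MASLD against SD livers were 0.23 for the isoforms, 0.45 for the substrate genes, 0.19 for the phospholipid genes and −0.12 for the partners, against 0.03 for all tested genes.

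Other genes followed the 2 opening enzymes across the 12 libraries, compared over 10655 genes by the Pearson correlation of log2 CPM, as a description in which the libraries share their groups. Closest to Mogat1 were Ctse, an aspartic protease (r = 0.979), Srxn1, which reactivates peroxiredoxins (0.979), and Dio1, a deiodinase of thyroid hormone (0.976). Ctse averaged 9.04 ± 0.61 CPM in MASLD livers, 5.60 ± 1.54 at 0.1x, 4.46 ± 2.03 at 1x and 0.475 ± 0.253 in SD livers. Among those closest to Gpam were Elovl6, a fatty acid elongase (r = 0.912), and H2-T24 (0.905). Elovl6 averaged 80.5 ± 9.4 CPM in MASLD livers, 55.0 ± 7.5 at 0.1x, 82.2 ± 40.2 at 1x and 55.7 ± 9.8 in SD livers.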

How the data were processed

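Per the labels' protocols, liver RNA was taken up on columns, made into stranded mRNA libraries and read in pairs; the HiSeq model differs between the labels and the design text. Reads were aligned with STAR 2.7.3a to mm10, per the submitters' processing notes. For the counting, the tool, strand setting and annotation were not given in the sources used here. Whole-number counts were deposited by the authors, for each gene ID and 12 libraries, and 0 columns lay outside the samples. Columns were tied to samples by title; in 1 case, 1x sample 5, title and library name (8) differed and the title decided. Symbols, positions and exon lengths came from GENCODE vM21, which held 55230 of the 55471 IDs.

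All other values were computed from these counts. Of 22984 genes with a count, 13866 passed edgeR's filterByExpr by group (edgeR 4.0.16, R 4.3.3). Libraries were scaled by TMM, and all 12 were fitted together by quasi-likelihood, with 1 coefficient for each group and no block, with two-sided tests, Benjamini-Hochberg adjustment over all tested genes and a threshold of 0.05. The SE was obtained as |log2 fold change| over √F. CPM per kilobase used the union of exons. The fit was tested on simulated counts before use. The other settings are listed with their effects below and include DESeq2 1.42.0. No pair of replicate libraries agreed within sampling noise.

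The 10 genes, the pathway lists (other isoforms, substrate supply, phospholipid use, lipin and transcription partners) and the marker lists (hepatocyte, macrophage, stellate cell, cholangiocyte, endothelial, fat cell, enterocyte, T and NK cell, B cell) were chosen with earlier results of these data known, so no p was computed over a list. Of the lists' symbols, 1 had no match. All 10 genes were named whatever their result, with up to 2 genes per list, direction and comparison by smallest adjusted p and the 3 genes closest to Gpam and to Mogat1, of which 1 is not reported here. Groups of 3 were too small for a test of outlying samples.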

Additional observations from a re-analysis of the deposited data

How the results depend on the processing

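Percentages in brackets give the share of all tested genes called in the same fit. The count of the 9 genes called in MASLD against SD livers, 6 (29.5%), stayed between 4 and 7 under all settings (18.8% to 44.0%). With total counts alone it was 5 higher and 0 lower in place of 4 and 2. At 0.1x against MASLD livers it was 0, and 3 with total counts alone, 2 without a filter, 1 in the fit of both groups alone and 1 with DESeq2, and 0 with each sample left out. At 1x against MASLD livers it was 1, and 2 without a filter (4.92%), 0 to 1 with a sample left out (0.587% to 2.79%). At 1x against 0.1x it was 4, and 2 in the fit of both doses alone, 1 with the GC and length trend removed, 1 with 0.1x sample 3 and 1x sample 2 left out (chosen after the data were seen), and 0 to 4 with a sample left out. At 0.1x against SD livers it was 5, and 3 in the fit of both groups alone and 3 to 6 with a sample left out; at 1x against SD livers it was 4 (3 higher and 1 lower), 6 with total counts alone (6 and 0), 5 with a filter at 1 CPM, with the GC trend removed and with DESeq2, 3 without a filter and in the fit of both groups alone, and 1 to 4 with a sample left out. With the replicate block the counts were 0 at 1x against MASLD, 0 between the doses, 3 at 0.1x and 1 at 1x against SD livers, in fits that called 53, 0, 1379 and 1122 of all 13866 genes, and with the block and the GC trend removed 0, 0, 3 and 2 (67, 0, 1629 and 1324 genes). The block gives each title number its own term. The numbers of 0.1x sample 1 and 1x sample 2 occur in no other library, so their terms take up these libraries whole. Both libraries then add nothing to the comparisons. Under the block, Mogat1 at 1x against MASLD stood at −0.75 (adjusted p = 0.171). The title numbers did not pair the samples: 12 same-numbered pairs correlated at −0.21 to 0.08, 0 of them over 0.1, and 0 of 6 SD and MASLD libraries correlated best with their own number. The route ratio in MASLD minus SD livers, 2.68, was 2.37 for Mogat1 over Gpam alone and 2.48 to 2.80 with a sample left out; the other settings moved the 3 ratios by less than the spread. The cause of these moves was not tested.

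Of the values of single genes outside the leave-outs, 399 kept their direction and side of the threshold, 25 passed newly, 40 no longer passed and 31 turned sign. With total counts alone, whose shift of all genes was 0.36 in MASLD against SD, −0.13 at 0.1x against MASLD, 0.22 at 0.1x against SD and 0.31 at 1x against SD livers, values turned for Gpat4 (0.33) and Dgat1 (0.26) in MASLD against SD; for Agpat2 (−0.071), Dgat1 (−0.036) and Dgat2 (−0.11) at 0.1x against MASLD; for Agpat2 (−0.037) and Dgat1 (−0.026) at 1x against MASLD; for Agpat2 (0.034) and Dgat1 (0.010) between the doses; for Dgat1 (0.22) at 0.1x against SD; and for Lpin1 (0.10) and Dgat1 (0.23) at 1x against SD livers. Dgat1 at 0.1x against SD also turned with a filter at 1 CPM (0.023), in the fit of both groups alone (0.0083), with the GC trend removed (0.027) and with the block as well (0.0082). The block turned Gpam (−0.20) and Lpin2 (−0.043) at 1x against MASLD. Removal of the GC trend turned Agpat2 (−0.041) and Agpat3 (0.039) at 0.1x against MASLD and Agpat2 (0.049) and Agpat3 (−0.21) between the doses. With both, Agpat2 (−0.0080), Agpat3 (0.062) and Lpin2 (0.12) turned at 0.1x against MASLD, Gpam (−0.15) at 1x against MASLD, Agpat2 (0.059), Agpat3 (−0.19) and Lpin2 (−0.069) between the doses, and Dgat1 (0.0026) at 1x against SD. Without 0.1x sample 3 and 1x sample 2, Agpat3 between the doses stood at −0.023. Of these, Lpin2 between the doses was called in the main result and the others were not.

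With a sample left out, 17 values turned sign, none of them called. Their ranges were −0.027 to 0.13 (Agpat2) and −0.024 to 0.082 (Dgat2) at 0.1x against MASLD; −0.055 to 0.094 (Agpat2), −0.0030 to 0.081 (Dgat1), −0.16 to 0.36 (Gpam) and −0.0058 to 0.25 (Lpin2) at 1x against MASLD; −0.12 to 0.050 (Agpat2) and −0.034 to 0.13 (Agpat3) between the doses; −0.072 to 0.060 (Dgat1) at 0.1x against SD; −0.37 to 0.062 (Lpin1) at 1x against SD; and −0.13 to 0.058 (Gpat4) in MASLD against SD livers. Mogat2 was not tested at this depth.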
